A study of Homo sapiens with 4 samples.

Results

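Isolated GATA4 intervals are stretches of DNA listed as bound in PaTu8988S cells that stand alone, with no other listed interval within 12.5 kb on either side. They were chosen by their measured positions in the list, from chromosomes 2, 4, 5, 6, 9, 10 and 12 of build hg19, and 2530 of the 4473 intervals on these 7 chromosomes met the rule. The whole list held 21308 intervals, 21139 of them on the 22 autosomes and chromosome X. The list comes from 4 CUT&RUN libraries that formed a single group: PaTu8988S, an established line from a pancreatic adenocarcinoma, with neither a treatment nor an edited genotype given, probed with 10 ug of the anti-GATA4 antibody MAB2606. The labels number the libraries 1 to 4 without saying whether they came from separate cultures, and no control antibody, input or second group was analysed here.

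GATA4 is a zinc-finger transcription factor that binds the short motif GATA in DNA and helps to specify endoderm, including stomach, liver and pancreas, as well as heart. Its paralogue GATA6 shares much of this role, and the series asks how loss of either relates to the "classical" subtype of ductal pancreatic cancer. Many of the sites such factors use are distal enhancers, which can stand alone or lie in groups. In CUT&RUN an antibody recruits a micrococcal nuclease that cuts out the bound DNA, so an interval is a run of recovered fragments. Its width depends on fragment length, on how many fragments were recovered and on the peak caller as well as on the protein.

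The isolated intervals were narrow and far apart. Their median width was 474.5 bp (95% interval of the median 463 to 486 bp, n = 2530), with quartiles of 355 and 633 bp and 5th and 95th percentiles of 240 and 998 bp. Their median distance to the nearest other interval was 82.2 kb (78.1 to 87.1 kb). Together they covered 1478 kb. All intervals of confidence given here are exact binomial ones over genomic intervals. They describe variation along the genome, not between libraries, since the list pools the 4 libraries and carries no score, signal or count for an interval. Neighbouring intervals may not be independent, which would make the confidence intervals too narrow.

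The rule fixed both the number and the spacing of these intervals, so these are given as descriptions. Isolated intervals made up 56.6% of the listed intervals on the 7 chromosomes and 36.1% on the other 16, with 40.4% over all 23. The 7 chromosomes thus held 29.6% of the 8540 isolated intervals of the autosomes and X, while holding 21.2% of all intervals. By chromosome the isolated share ran from 41.4% to 71.3% on the 7 and from 6.86% to 59.0% on the other 16. These ranges overlapped, so a high share was not particular to the 7. The name sparse fits the density of all intervals, which ran from 3.19 per Mb on chromosome 6 to 4.78 per Mb on chromosome 12. Each density is per Mb of the span from the first to the last listed interval, not of the full chromosome length. These densities took places 3 to 9 among the 23 chromosomes counted from the sparsest. By this measure chromosomes X and 22 were sparser, at 1.70 and 2.22 per Mb, and are not among the 7. Ranks by full chromosome length were not computed.

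Chromosome 2 carried the most isolated intervals, 564 of its 944. It was followed by chromosome 6 with 388 of 544, chromosome 5 with 380 of 632 and chromosome 12 with 378 of 640. Chromosome 10 carried 315 of 550, chromosome 4 carried 259 of 625 and chromosome 9 carried 246 of 538. Chromosome 6 therefore had the highest isolated share (71.3%) and chromosome 4 the lowest (41.4%). Per Mb of the span from first to last listed interval, the order was different. The span of chromosome 9, 141 Mb, includes a stretch of 21.1 Mb without any interval. Chromosome 12 held 2.83 isolated intervals per Mb, chromosomes 2, 10 and 6 held 2.33, 2.33 and 2.27, chromosome 5 held 2.10, chromosome 9 held 1.74 and chromosome 4 held 1.36.

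Chromosome 4 combined the lowest isolated density with the longest median distance. Its isolated intervals were a median of 105.1 kb from their nearest neighbour, and 34 of the 259 (13.1%) had none within 500 kb. On chromosome 12, the densest of the 7, the median was 60.2 kb, and 17 of 378 (4.50%) had none within 500 kb. The other 5 medians lay between 75.6 kb on chromosome 5 and 93.5 kb on chromosome 6.

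Most isolated intervals lay well beyond the limit of the rule. The nearest neighbour was over 25 kb away for 2121 (83.8%), over 100 kb for 1124 (44.4%), over 500 kb for 193 (7.63%) and over 1000 kb for 52 (2.06%). The sides of an interval are described as nearer and farther, so some difference between them is built in. The ratio that random placement would give was not computed. The farther neighbour was a median of 343 kb away, and the ratio of the farther to the nearer distance had a median of 3.15, with quartiles of 1.73 and 7.25. On the other 16 chromosomes the isolated intervals had a median nearest distance of 44.6 kb, a median farther distance of 141 kb and a median ratio of 2.41. Of the isolated intervals of the 7 chromosomes, 11 were the first or last of their chromosome and had a neighbour on a single side.

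At the limit itself, the values just inside belonged to chr4:49236906-49237275, whose nearest neighbour was 12.549 kb away, and to chr10:120850423-120851013, at 12.563 kb. Just outside were the neighbours chr6:137101048-137101444 and chr6:137113899-137114474, which were 12.455 kb apart. Within 1 kb above the limit there were 29 isolated intervals with a median width of 527 bp. Within 1 kb below it there were 54 others with a median width of 503.5 bp.

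**Figure D1:**
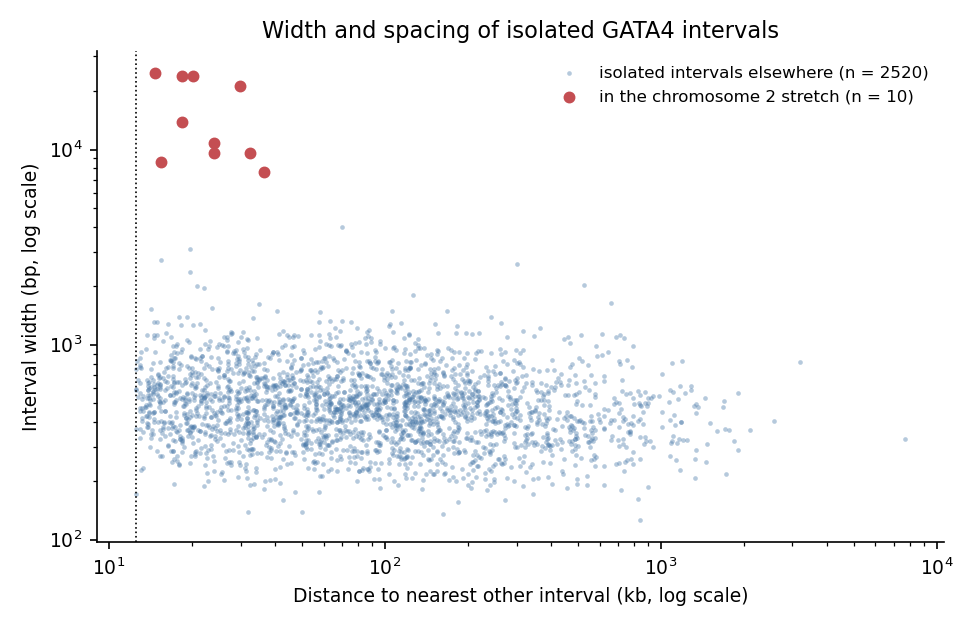
Each point is an isolated interval, placed by its distance to the nearest other interval (kb, log axis) and its width (bp, log axis); the dotted line marks 12.5 kb. The 10 intervals of the chromosome 2 stretch, 7703 bp or wider, stand above the other 2520, of which the widest is 4001 bp.

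The most solitary intervals lay in near-empty ground and ranged in width. The farthest from any neighbour was chr9:14301726-14302053, 327 bp wide. It lay 7.71 Mb after the interval before it and 7.80 Mb before the next. The second was chr4:129481950-129482760, 810 bp wide, with neighbours 5.00 and 3.19 Mb away. The third was chr5:27906947-27907353 (406 bp), with neighbours 2.58 and 2.70 Mb away. Nothing else was listed for megabases around these intervals. Being common to the 4 libraries does not set them apart, as it holds for every listed interval.

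Similar emptiness on both sides surrounded chr5:110844834-110845198 (364 bp), whose nearest neighbour was 2.10 Mb away. On chromosome 4, the intervals chr4:114557765-114558329 (564 bp) and chr4:116456139-116456428 (289 bp) were each other's nearest neighbour across 1.90 Mb. The most solitary interval of chromosome 6 was chr6:66120258-66120579 (321 bp), with neighbours 1.84 and 5.00 Mb away. That of chromosome 10 was chr10:67978663-67979034 (371 bp, nearest neighbour 1.71 Mb away). Chromosome 2 had its most solitary interval at chr2:104852928-104853217 (289 bp, 1.35 Mb) and chromosome 12 at chr12:129787683-129788178 (495 bp, 1.34 Mb). Of the 7 intervals that were the most solitary of their chromosome, those of chromosomes 4 and 12 were wider than the overall median of 474.5 bp.

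The nearest neighbour of an isolated interval was itself isolated for 2161 of 2530 (85.4%), belonged to a pair of linked intervals for 269 (10.6%), to a cluster of 3 to 19 for 92 (3.64%) and to a cluster of 20 or more for 8 (0.316%). Of the 2998 isolated intervals, pairs and clusters on the 7 chromosomes, 84.4% were isolated intervals, 10.5% pairs, 4.54% clusters of 3 to 19 and 0.600% clusters of 20 or more, so isolated intervals and pairs were neighbours about as often as they occurred. For 1867 (73.8%) the neighbours on both sides were isolated. Without a break by a cluster, the isolated intervals formed 363 runs with a median of 5 intervals, and 92 runs of 10 or more held 1513 of them. Where 84.4% of all units are isolated, long runs and isolated neighbours on both sides are common by number alone. The values that this share alone would give were not computed. The longest run, chr2:190449893-201828653, held 48 isolated intervals in 11.4 Mb, with a median width of 430 bp. The next had 33 each, at chr5:98479097-123917606 (25.4 Mb) and at chr2:204443789-219136133 (14.7 Mb). The longest run of chromosome 4 (chr4:139268832-159593615) held 21 in 20.3 Mb, and its median width was 355 bp.

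Along the chromosomes the isolated intervals were spread over most windows. Of 244 windows of 5 Mb, 237 held at least 1 of them, the median window held 9.5 (quartiles 6 and 14), and 22 windows held 20 or more. The fullest, on chromosome 5 from 175 to 180 Mb, held 56 isolated intervals among 91 in all. The second, on chromosome 12 from 30 to 35 Mb, held 36 among 135, and chromosome 2 from 190 to 195 Mb held 29 among 31. A high number of isolated intervals thus occurred both where many others lay and where almost none did.

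Isolated intervals that lay farther from their neighbours were narrower. When all 2530 were put in 4 groups of near-equal size by nearest distance, the median width was 426 bp in the farthest group (191.312 kb and beyond; 95% interval 411 to 445 bp, n = 633) and 522.5 bp in the nearest (12.549 to 34.015 kb; 500 to 538 bp, n = 634). The groups between had medians of 489.5 bp (nearer) and 470 bp (farther). The ratio of farthest to nearest was 0.815. The farthest group was the narrower on each of the 7 chromosomes. The values were 417 bp and 528.5 bp on chromosome 2, 403.5 and 448 bp on chromosome 4, and 406 and 538 bp on chromosome 5. They were 416 and 527 bp on chromosome 6, 453.5 and 573 bp on chromosome 9, 426 and 569.5 bp on chromosome 10, and 480 and 524.5 bp on chromosome 12, the farthest group first in each case. The 95% intervals of the medians overlapped on chromosomes 2, 4, 9 and 12, and on chromosome 5 by 1 bp. Over single intervals the relation was weak, with a Spearman correlation of -0.16 across 2530 intervals of the same libraries. Depth per interval is unknown, and its part in this relation was not tested.

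The isolated intervals of the other 16 chromosomes showed the same order at larger widths. With the nearest neighbour 12.5 to 25 kb away, the median width was 527 bp on the 7 chromosomes (n = 409) and 590.5 bp on the 16 (n = 1640). At 25 to 50 kb it was 507 and 555 bp, at 50 to 100 kb 485.5 and 521.5 bp, at 100 to 250 kb 457.5 and 484 bp, and over 250 kb 413 bp (n = 470) and 436.5 bp (n = 596). The 95% intervals of the medians were apart in the 3 nearest of these distance classes and overlapped in the 2 farthest. Over all distances the medians were 474.5 bp on the 7 chromosomes and 531 bp on the 16. By chromosome, the isolated median ran from 438 bp (chromosome 4) to 490 bp (chromosome 10) on the 7 and from 404 bp (chromosome X) to 615 bp (chromosome 19) on the 16, and 12 of the 16 lay above 490 bp. No test was made, as intervals are not replicates of a condition.

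**Figure D2:**
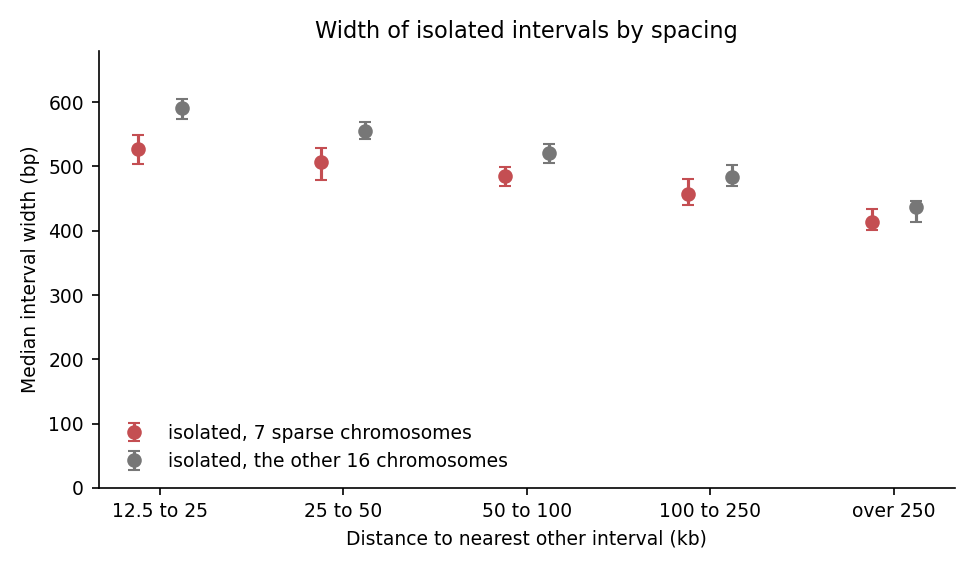
Median width (bp) of isolated intervals by distance to the nearest other interval (kb), for the 7 sparse chromosomes on the left of each class and the other 16 on the right; bars are exact binomial 95% intervals of the median. Both series step down from left to right, to 413 bp on the 7 and 436.5 bp on the 16.

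Isolated intervals were narrower than the other intervals of their own chromosomes when the 7 were pooled, and on 6 of the 7 taken singly. Chromosome 5 counts among the 6 with nearly equal medians of 485 and 485.5 bp. The pooled medians were 474.5 bp for the isolated and 531 bp for the 1943 others (95% interval 510 to 548 bp), a ratio of 0.894. Of the isolated intervals, 60.7% (58.7% to 62.6%) were narrower than the median of the others. The difference lay more in the wide tail than in the middle. Widths of 1 kb or more occurred in 125 isolated intervals (4.94%) and in 321 others (16.5%), with 18.2% over all 23 chromosomes. The 25th percentiles were 355 and 370 bp, the 75th 633 and 806.5 bp, and the 95th 998 and 1651 bp, isolated first. At the 5th percentile the order was turned, with 240 bp for the isolated and 209 bp for the others. The other 16 chromosomes showed the same order of medians, so that order was not particular to the 7. Their 5th percentiles were 265 and 283 bp, isolated first, and so were not turned. There the pooled medians were 531 bp for isolated and 686 bp for other intervals (ratio 0.774). Isolated intervals were the narrower on 14 of the 16. Widths of 1 kb or more occurred in 9.15% and 26.7% there, isolated first.

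The gap was not alike on every chromosome. It was widest on chromosome 4, where the isolated median was 438 bp and that of the others 648.5 bp (ratio 0.675). On chromosome 4, 201 of the 366 others lay in clusters of 20 or more, whose median width was 823 bp; against the 165 outside such clusters, with 494 bp, the isolated intervals differed less. Leaving out such clusters widened the gap on other chromosomes. The isolated medians of 485, 477.5 and 468 bp on chromosomes 5, 9 and 12 then stood against 535.5, 636 and 515 bp for the others. On chromosome 2 the gap shrank, with 474 bp and 516 bp. Isolated and other medians were 474 and 541 bp on chromosome 2, 477.5 and 543.5 bp on chromosome 9, 468 and 495.5 bp on chromosome 12, and 474 and 498.5 bp on chromosome 6. On chromosome 5 they were 485 and 485.5 bp, where the others included 36 intervals of clusters of 20 or more with a median of 270 bp. On chromosome 10 the order was turned, with 490 bp for the isolated and 439 bp for the others (ratio 1.12). The 95% intervals of the medians were apart on chromosomes 2 and 4 and overlapped on the other 5. Without chromosome 4 the share of isolated intervals narrower than the median of the others was 54.8%.

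**Figure D3:**
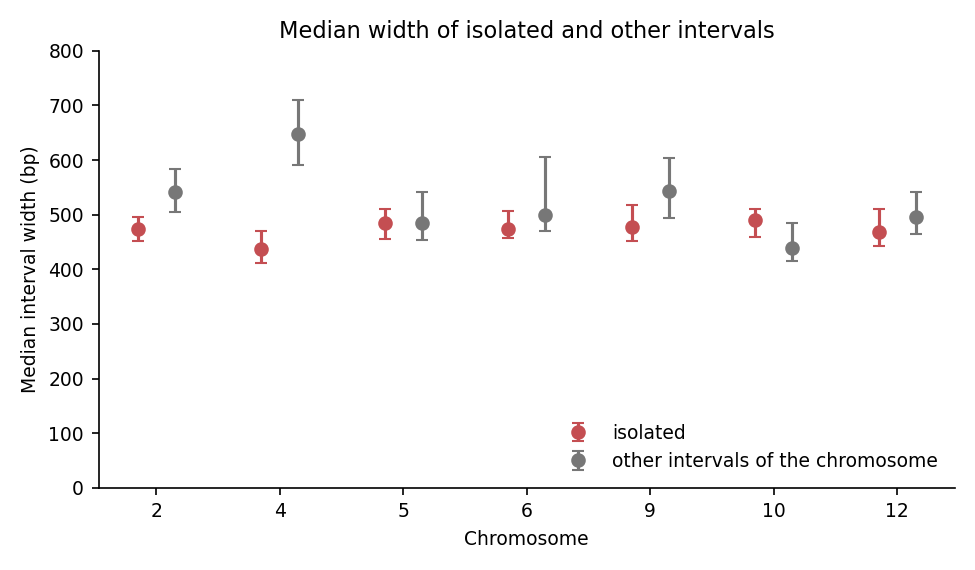
Median interval width (bp) on each of the 7 chromosomes, isolated intervals on the left and the other intervals of that chromosome on the right; bars are exact binomial 95% intervals of the median. Chromosome 4 shows the largest gap (438 and 648.5 bp) and chromosome 10 the opposite order (490 and 439 bp).

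Set against the size of the cluster an interval belonged to, isolated intervals resembled members of pairs more than members of larger clusters. Neighbours within 12.5 kb of each other count here as parts of 1 cluster. The median width was 474.5 bp for isolated intervals, 478 bp for the 628 intervals in pairs, 543 bp for the 324 in clusters of 3 to 5, 594.5 bp for the 438 in clusters of 6 to 19 and 557 bp for the 553 in clusters of 20 or more. The 95% intervals of isolated and paired intervals overlapped (463 to 486 and 459 to 500 bp), while those of the 3 larger classes lay above that of the isolated. The 95th percentile was 998 bp for isolated intervals, 1041 bp in pairs and 2083 bp in clusters of 6 to 19. On the other 16 chromosomes isolated and paired intervals had medians of 531 and 585 bp, and their 95% intervals were apart.

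**Figure D4:**
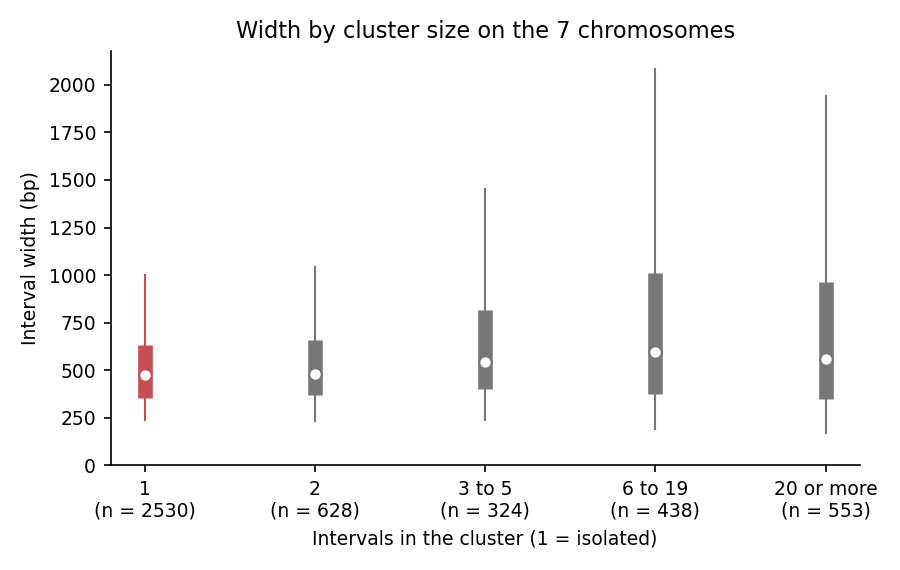
Interval width (bp) by the number of intervals in the cluster on the 7 chromosomes, with 1 standing for isolated; the point is the median, the thick bar the quartiles and the thin line the 5th to 95th percentiles. The thin line reaches 998 bp for isolated intervals and 2083 bp in clusters of 6 to 19.

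Widths were also set side by side by position on the chromosome. Within 1 Mb of the first or last interval of a chromosome, and not near its longest empty stretch, 70 isolated intervals had a median width of 620 bp (95% interval 481 to 737 bp) and the 264 others there had 772.5 bp. Within 5 Mb of the longest stretch without any interval, 174 isolated intervals had a median of 452.5 bp and 375 others had 481 bp. Elsewhere, 2286 isolated intervals had 475 bp (461 to 488 bp) and 1304 others had 500.5 bp (483 to 518 bp), and these 95% intervals overlapped. Among isolated intervals the 95% interval elsewhere overlapped those at the ends and near empty stretches (420 to 480 bp), and single chromosomes went the other way. The isolated median was 418 bp at the ends of chromosome 10, against 490 bp over that chromosome, and 522 bp near the empty stretch of chromosome 12, against 468 bp over that chromosome. The ends and the edges of empty stretches held 9.64% of the isolated intervals and 32.9% of the others. Most of those others lay on few chromosomes. Chromosome 4 held 174 of the 264 at the ends, and chromosomes 9 and 12 held 189 and 147 of the 375 near empty stretches. On chromosomes 2, 4, 5, 6 and 10 the isolated intervals near the empty stretch outnumbered the others. The counts there were 27 and 8, 15 and 5, 22 and 2, 33 and 18, and 17 and 6, isolated first. On chromosome 9 the longest empty stretch was chr9:45364020-66459247 (21.1 Mb), with 17 isolated intervals and 189 others within 5 Mb of it.

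Isolated intervals of 5 kb or more, 10 on the 7 chromosomes, lay in a single place. The widest isolated interval of the other 16 chromosomes was 3444 bp. Of the 2530, 16 were 2 kb or wider (0.632%; 2.91% of all intervals on the 23 chromosomes) and 6 were 10 kb or wider (0.237%; 0.114% of all). The 10 widest all lay on chromosome 2 in a stretch of 740 kb, chr2:15848409-16588282, whose first and last intervals are the outer ones of a chain of intervals of 10 kb or more. The stretch held 22 intervals, and 12 of them, with a median width of 16084.5 bp, were too close to a neighbour to count as isolated. The 10 isolated ones had a median of 12375.5 bp and covered 154 kb, which is 10.4% of all the ground that the 2530 covered. MYCN, a MYC family oncogene best known from amplification in neuroblastoma, is a gene of this part of the short arm. No hg19 annotation was used, so no interval was assigned to it, and the name was added after the values were seen.

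The widest isolated interval was chr2:16076309-16100967 (24658 bp), 42.2 kb after the interval before it and 14.6 kb before the next. It was followed by chr2:15968260-15992112 (23852 bp), chr2:16364436-16388157 (23721 bp) and chr2:16567028-16588282 (21254 bp). The fifth and sixth were chr2:16332226-16346111 (13885 bp) and chr2:16492579-16503445 (10866 bp). The remaining 4 were chr2:16024510-16034108 (9598 bp), chr2:16527478-16537059 (9581 bp), chr2:16263183-16271836 (8653 bp) and chr2:16448386-16456089 (7703 bp). All 10 were within 14.6 to 36.5 kb of another interval of the stretch, so they were isolated by the limit of the rule but not solitary. The interval that follows the stretch, 47.1 kb on, was 1191 bp wide. Within 5 Mb on either side of the stretch there were 16 isolated intervals, the widest of 1492 bp, with a median of 700.5 bp (95% interval 428 to 1005 bp).

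**Figure D5:**
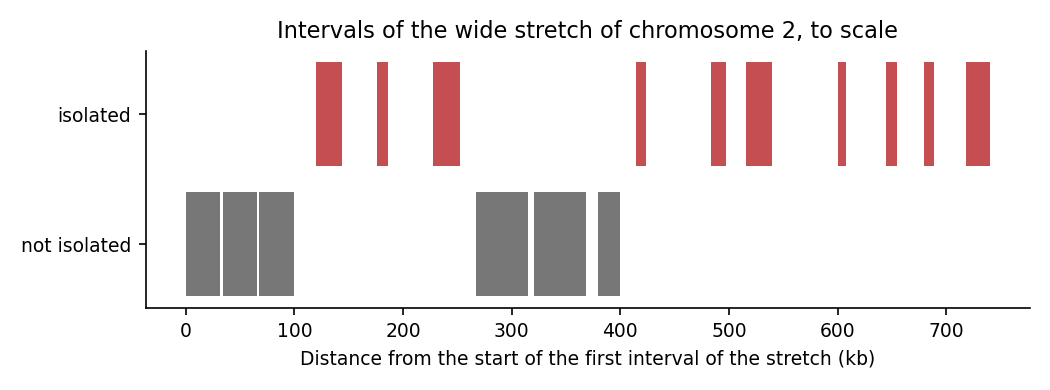
The 22 intervals of the wide stretch of chromosome 2, drawn to scale by distance (kb) from the start of the first, with the 10 isolated ones in the upper row and the 12 others in the lower. The last 7 intervals are isolated, and gaps of 23 to 77 bp between some of the others are too small to see.

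Outside that stretch no isolated interval reached 5 kb, and widths were far more even. The SD of width was 259 bp over the 2520 intervals outside and 1056 bp over all 2530, while the median was 473.5 bp without the stretch. The widest outside was chr10:42527377-42531378 (4001 bp), with neighbours of 235 and 307 bp at 109.0 and 69.9 kb. The next also lay on chromosome 10, at chr10:135499334-135502410 (3076 bp). Its neighbour, chr10:135522046-135524410, was 2364 bp wide and was the last interval of that chromosome.

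Several of the widest single intervals stood at the end of their chromosome's intervals. The widest of chromosome 5, chr5:180708251-180710952 (2701 bp), was the last there. On chromosome 2 the widest outside the stretch, chr2:243153235-243155265 (2030 bp), was also the last, 526 kb after its neighbour. The first interval of chromosome 9, chr9:20893-22527, was 1634 bp wide and 660.2 kb from the next. The widest of chromosome 9, chr9:140245183-140247126, was 1943 bp. By contrast, the widest of chromosome 4 was chr4:68264208-68266810 (2602 bp), between neighbours of 216 and 299 bp that were 1.73 and 0.300 Mb away. Chromosomes 6, 9 and 12 had no isolated interval of 2 kb or more. The widest of chromosomes 6 and 12 were chr6:108581494-108582709 (1215 bp) and chr12:33049231-33050619 (1388 bp).

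At the other extreme, the narrowest isolated intervals were chr2:51581341-51581467 (126 bp), chr2:88124389-88124525 (136 bp) and chr6:143225957-143226095 (138 bp). The first of these had no neighbour within 838 kb. The average insert of the libraries, 325 bp of fragment less 120 bp of adaptor per the labels, is 205 bp. Of the isolated intervals, 47 were narrower than that (1.86%, 95% interval 1.37% to 2.46%), with 89 of the others (4.58%, 3.69% to 5.61%) and 1.75% of all intervals on the 23 chromosomes. The isolated share was thus near that of all intervals and below that of the others. It was above that of the isolated intervals of the other 16 chromosomes. There 60 of 6010 were narrower than the insert (0.998%, 95% interval 0.763% to 1.28%).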

How the data were processed

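CUT&RUN of GATA4 was done in 4 libraries of PaTu8988S, each from 500000 cells. The deposited file is 1 list of intervals common to the 4 libraries, with 3 columns (chromosome, start, end), 21308 intervals and 1 blank line. Its deposited values are positions in bp, and this list carries no score or count. SEACR (which calls peaks in CUT&RUN data), HOMER and build hg19 are named, per the submitters' processing notes. The sources used here give neither versions, parameters, a control nor the overlap that made an interval common. Depth per library is unknown.

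Width is end minus start. Whether starts count from 0 or 1 is not stated. An interval was isolated when the gaps to the intervals before and after it both exceeded 12500 bp, and a side with no interval counted as passing. Medians carry exact binomial (order-statistic) 95% intervals and shares exact Clopper-Pearson ones. No p-value was computed, since the list pools the libraries and the rule used these positions. The code was tested on simulated data. Calculations used matplotlib 3.10.9, scipy 1.17.1, pandas 2.3.3 and numpy 2.4.6 under Python 3.11.15.

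Intervals were named by position: the 10 widest, the widest and most solitary of each chromosome, the 5 most solitary, the 3 narrowest and 2 on either side of the limit. The widest outside the chromosome 2 stretch, and the other intervals named at chromosome ends, were chosen after their values were seen. The intervals, rules and groupings were chosen with earlier results of these data known. No sequence or annotation of hg19 was used, so motifs, sequences and nearest genes are not reported.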

Additional observations from a re-analysis of the deposited data

How the results depend on the processing

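Each of 7 values was recomputed under 18 alternatives, 3 of them chosen after seeing the data. Of the 126 results, 91 stayed within the 95% interval of the reported value (counts within 1.5 times), and none turned its direction. For both width ratios that interval came from the median of the isolated or farthest group, with the median it was divided by held fixed. It leaves out the spread of the latter and is too narrow. The interval of the share narrower than the median of the others also held that median fixed. The number of isolated intervals was 1646 with an isolation distance of 50 kb. Their share, 56.6% as reported, was 66.7% at 5 kb, 47.4% at 25 kb, 36.8% at 50 kb, 65.9% after merging intervals within 1 kb, 58.3% without the narrowest 5%, 59.0% without chromosome 4, 54.5% without chromosome 6, 58.0% without chromosome 9, 64.5% without clusters of 20 or more and 63.7% without intervals near empty stretches and ends. Median width was 456 bp at 50 kb and 496 bp without the narrowest 5%, which raises it by construction. The median nearest distance was 61.1 kb at 5 kb, 108.7 kb at 25 kb and 144 kb at 50 kb, as the rule sets. The width ratio of the farthest to the nearest spacing group was 0.856 at 5 kb and at 50 kb, 0.855 without the narrowest 5% and 0.786 without chromosome 12.

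The ratio of isolated to other widths, 0.894 as reported, lay between 0.792 (after merging) and 0.949 (without intervals near empty stretches and ends); it was 0.872 at 50 kb, 0.863 without the narrowest 5%, 0.947 without chromosome 4 and 0.869 without chromosome 10. The share of isolated intervals narrower than the median of the others was 63.1% at 5 kb and at 50 kb, 70.1% after merging, which widens clustered intervals by construction, 58.6% with distances between centres, 65.1% without the narrowest 5%, 54.8% without chromosome 4, 63.1% without chromosome 10, 58.2% without clusters of 20 or more and 54.9% without intervals near empty stretches and ends. Leaving out each library could not be run on a pooled list, and motif alternatives need an hg19 sequence. No paired analysis was possible because the 4 libraries form 1 group. An empty stretch shows only that no common interval was listed there.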

Other observations

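The isolated intervals of the sparsest chromosomes outside the 7 were few. Chromosome X had 136 of its 263 intervals isolated, with a median width of 404 bp, and chromosome 22 had 46 of 78, with 466.5 bp. The ratios of isolated to other medians were 1.08 and 1.15, with overlapping 95% intervals of the medians on both. On chromosome X, 71 of the 127 others lay in clusters of 20 or more, with a median of 279 bp. The 56 outside such clusters had a median of 557 bp, which turns the order there. No test of these ratios was made.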
